A study of Rattus norvegicus with 10 samples.

Results

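The genes described here are the respiratory chain genes carried by the mitochondrial genome, followed in RCS cells with and without ARSL. They were taken from the expression table by symbol, from a list of 9, and 8 of the 10184 rows matched: Mt-nd1, Mt-nd2 and Mt-nd5 of complex I, Mt-cyb of complex III, Mt-co1, Mt-co2 and Mt-co3 of complex IV, and Mt-atp6 of complex V. Mt-nd4, the other gene of the list, was not analysed here. RCS is a rat chondrosarcoma line whose cells resemble chondrocytes. The study compared 5 wild-type (WT) libraries of this line with 5 libraries of the same line after deletion of the gene for arylsulfatase L (ARSL KO, called KO below). Both groups grew in the same serum-supplemented medium without treatment, and RNA was taken 48 h after seeding. The labels do not say whether the KO libraries come from 1 clone, nor whether replicate cultures were independent, so p-values measure the spread between these libraries, and deletion and line cannot be told apart.

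Mitochondria make ATP by passing electrons along complexes I, III and IV of the inner membrane and using the resulting proton gradient in complex V, the ATP synthase. Most subunits of these complexes come from nuclear genes, but a small core set is encoded by the circular mitochondrial DNA, and each functional complex needs both kinds. Mitochondrial genes are transcribed as long joint RNAs from both DNA strands, which are then cleaved into single messengers, so their levels are linked by transcription and can still part through RNA stability. Cartilage cells live with little oxygen and rely largely on glycolysis.

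Recovered reads, that is whole reads computed back from the deposited values, came to 2065594 to 2591819 per library. Values below are normalised reads (reads over the size factor of their library) unless the log2-like scale of the deposited table is named. That scale shrinks differences between genes with few reads, so its values are not log2 ratios there. WT 3 and WT 4 stood apart from all other libraries on the first principal component, which held 51.1% of the variance, with scores of 28.0 and 26.8. ARSL KO 4 had 7.9 and the other 7 libraries lay between -15.0 and -3.0. Of 15 chondrocyte markers 13 had a row, with summed levels of 79416 in WT 3, 79859.6 in WT 4 and 43111 to 56753 in the other libraries. Of the macrophage markers 1 of 7 had a row, of the endothelial ones 2 of 6, of the epithelial ones 1 of 6 and of the fibroblast ones 4 of 10. No row carried the symbol of the deleted gene, which was not analysed here and gave no check of the genotype labels. Of the 13 chondrocyte markers 10 were lower and 3 higher in KO, and 6 were lower and 7 higher without WT 3 and 4.

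All 8 genes had a lower mean in KO than in WT, at 0.752 to 0.850 of the WT level, and 0 of 8 passed the test. Differences on the log2-like scale ran from -0.42 for Mt-nd5 and Mt-co3 to -0.22 for Mt-co2, with a median of -0.32, beside a median of 0.01 over the 8431 genes tested. Over all tested genes 47.9% were lower in KO, and 1.14% passed, 0.878% downward (limma, Benjamini-Hochberg adjusted p under 0.05). At an unadjusted p under 0.05, limma gave 4 of the 8 genes, where it gave 13.5% of all tested genes. Limma-voom on the recovered reads gave 5 of 8, where it gave 13.4%, with 0 of the 8 passing after adjustment. The 8 genes share their transcription, so 8 lower means are not 8 separate observations. In bulk RNA, fewer mitochondrial messengers per cell and a change in the make-up of the culture cannot be told apart. Together the 8 genes took 5.31 ± 0.954% of the listed reads in WT against 4.35 ± 0.550% in KO (± SD, n = 5 per genotype). The split inside the WT group was larger than the gap between the genotypes. The share was 5.88%, 6.01% and 6.12% in WT 1, 2 and 5 (mean 6.00%) but 4.34% and 4.21% in WT 3 and 4 (mean 4.27%). In KO 1 to 5 it was 4.38%, 4.56%, 3.40%, 4.68% and 4.73%.

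**Figure D1:**
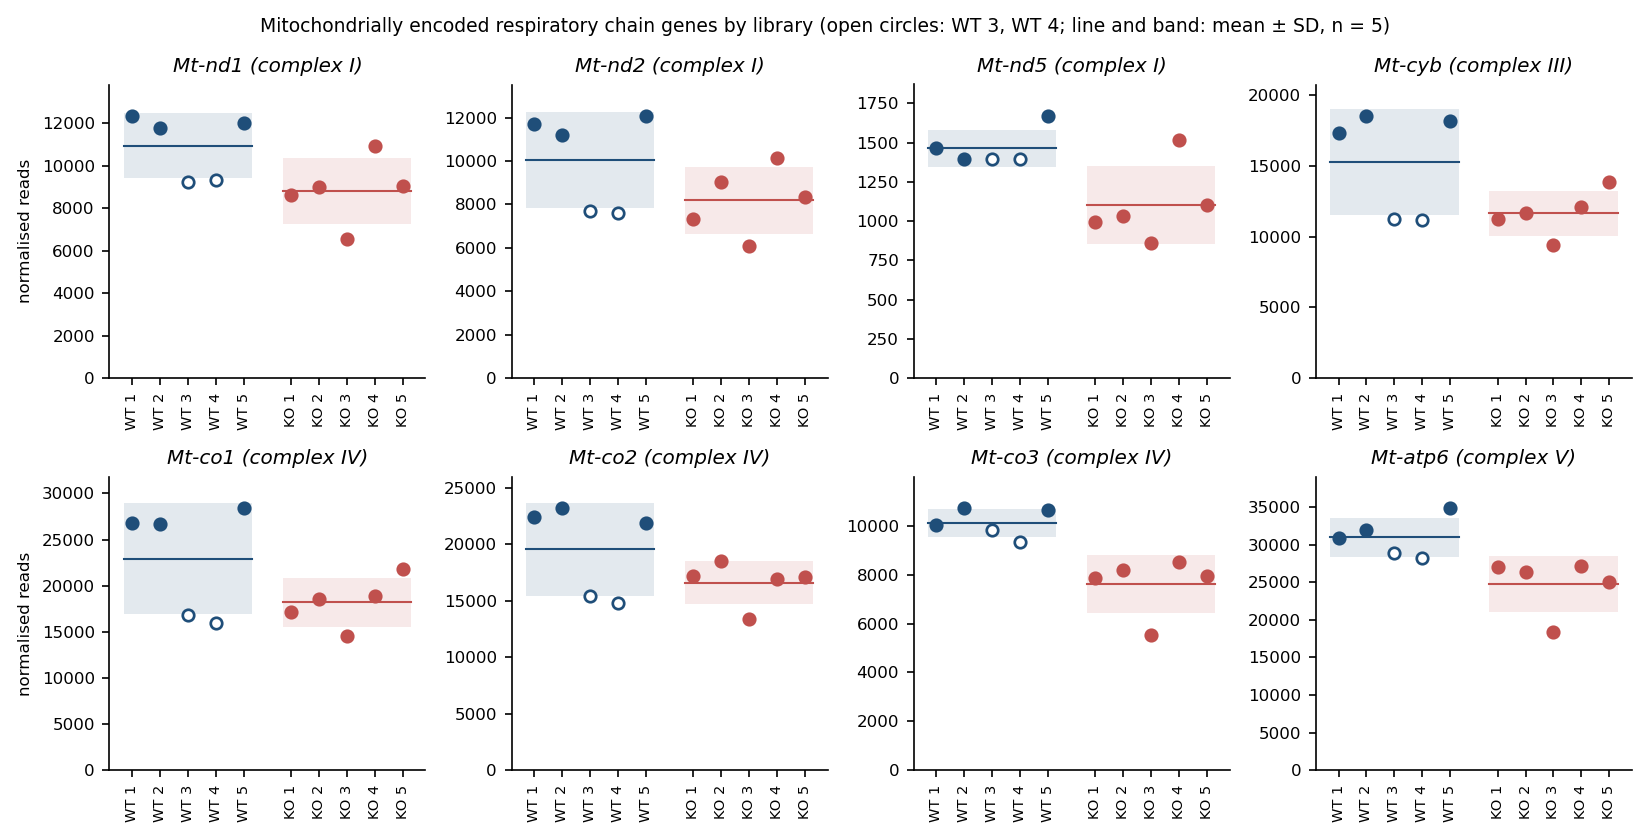
Normalised reads (vertical axis from 0) of the 8 mitochondrially encoded genes in each library, with 1 point per library, a line at the group mean and a band of 1 SD (n = 5 per group). WT 3 and WT 4 (open circles) lie within the KO range for 6 genes, of which Mt-nd1 and Mt-nd5 only through KO 4. For Mt-co3 and Mt-atp6 all 5 WT libraries lie above all 5 KO libraries.

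Complex I, the NADH dehydrogenase, takes electrons from NADH into the chain, and Mt-nd1, Mt-nd2 and Mt-nd5 encode subunits of its proton-pumping membrane arm. Mt-nd1 had 12337, 11789, 9239, 9342 and 12013 normalised reads in WT 1 to 5, and 8627, 8983, 6552, 10916 and 9030.4 in KO 1 to 5. The groups overlapped, because WT 3 and 4 were low among WT and KO 4 was high among KO. The difference was -0.32 on the log2-like scale (SE 0.143, 95% interval -0.62 to -0.01, limma adjusted p = 0.346). Mt-nd2 had 11709, 11212, 7676, 7625 and 12076 normalised reads in WT 1 to 5, and 7346, 9012, 6067, 10148 and 8349.7 in KO 1 to 5. WT 3 and 4 again lay inside the KO range, below 3 of the 5 KO libraries, and the difference was -0.29 (SE 0.171, 95% interval -0.65 to 0.08, limma adjusted p = 0.488).

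Mt-nd5 behaved otherwise inside the groups. It had 1467, 1396, 1395, 1396 and 1670.2 normalised reads in WT 1 to 5, so WT 3 and 4 were level with WT 2. In KO 1 to 5 it had 992, 1035, 859, 1519 and 1103, and KO 4 was the only KO library inside the WT range. The difference was -0.42 (SE 0.129, 95% interval -0.69 to -0.14, limma adjusted p = 0.153). This gene depended on KO 4: without that library the difference was -0.54 and passed (limma adjusted p = 0.0204). Over the 22 alternative settings its adjusted p ran from 2.73e-04 to 0.345. Summed over the 3 genes, complex I averaged 22468 ± 3807 normalised reads in WT against 18108 ± 3307 in KO (± SD, n = 5 per genotype).

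Complex III passes electrons from ubiquinol to cytochrome c, and Mt-cyb encodes cytochrome b, its only mitochondrially encoded subunit. Mt-cyb had 17336, 18520.0, 11222, 11151 and 18134 normalised reads in WT 1 to 5, and 11269, 11657, 9371, 12116 and 13822 in KO 1 to 5. WT 1, 2 and 5 lay above every KO library, while WT 3 and 4 were lower than 4 of the 5 KO libraries. Group means were 15273 ± 3755 in WT and 11647 ± 1603 in KO (± SD, n = 5 per genotype), and differed by -0.36 (SE 0.170, 95% interval -0.73 to 0.00, limma adjusted p = 0.372).

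Complex IV, cytochrome c oxidase, hands the electrons to oxygen. Mt-co1 encodes the subunit that holds the site of oxygen reduction, Mt-co2 the subunit that receives electrons from cytochrome c, and Mt-co3 the third core subunit. Mt-co1 had 26782, 26736, 16812, 16001 and 28404 normalised reads in WT 1 to 5, and 17172, 18605, 14551, 18906 and 21802 in KO 1 to 5. WT 3 and 4 were below 4 of the 5 KO libraries, and the difference was -0.30 (SE 0.181, 95% interval -0.69 to 0.09, limma adjusted p = 0.492). Mt-co2 had 22402, 23181, 15439, 14764 and 21881 in WT 1 to 5, and 17152, 18491, 13378, 16887 and 17111 in KO 1 to 5. It showed the same split of the WT libraries and the smallest difference of the 8 genes, -0.22 (SE 0.155, 95% interval -0.55 to 0.12, limma adjusted p = 0.559). After quantile normalization, which gives each library the same top values, these differences became 0.01 for Mt-co1 and 0.04 for Mt-co2. With median centring they were -0.30 and -0.21.

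Mt-co3 separated the genotypes completely. It had 10016, 10713, 9835, 9344 and 10633 normalised reads in WT 1 to 5, and 7868, 8193, 5550.3, 8511 and 7951 in KO 1 to 5. WT 3 and 4 were close to the other WT libraries here, unlike for Mt-co1 and Mt-co2. The difference was -0.42 (SE 0.124, 95% interval -0.69 to -0.16), the smallest unadjusted p of the 8 genes, and did not pass (limma adjusted p = 0.139). Complete separation with KO below WT held for 2 of the 8 genes, Mt-co3 and Mt-atp6, and for 2.40% of all tested genes.

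Complex V, the ATP synthase, turns the proton gradient into ATP, and Mt-atp6 encodes part of its proton channel. Mt-atp6 had 30852, 31949, 28881, 28263 and 34824 normalised reads in WT 1 to 5, and 27016, 26315, 18352, 27186 and 24989 in KO 1 to 5. The lowest WT library, WT 4, was just above the highest KO library, KO 4. Group means were 30954 ± 2623 in WT and 24772 ± 3691 in KO (± SD, n = 5 per genotype), with a difference of -0.33 (SE 0.136, 95% interval -0.62 to -0.04, limma adjusted p = 0.297). KO 3 was the lowest of all 10 libraries for each of the 8 genes.

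WT 3 and WT 4 were then set apart from the other WT libraries; the choice rests on these same data. With 3 WT and 5 KO libraries, all 8 differences were below 0, as were those of 49.4% of all tested genes, and larger in size than with all libraries, from -0.64 for Mt-cyb to -0.41 for Mt-atp6, with a median of -0.47. Mt-cyb fell by 0.64 (SE 0.129, limma adjusted p = 0.00978) and Mt-co1 fell by 0.60 (SE 0.139, limma adjusted p = 0.0249), and the other 6 genes did not pass. Mt-cyb and Mt-co1 were also the genes lowest in WT 3 and 4, at 0.622 and 0.601 of the mean of WT 1, 2 and 5. Leaving out WT 3 and 4 therefore widened these differences, and the calls are not independent support. Mt-nd2 had a limma adjusted p of 0.0512, Mt-co3 0.0671, Mt-nd5 0.0715, Mt-nd1 0.0801, Mt-co2 0.0871 and Mt-atp6 0.189. With these libraries 1.87% of all tested genes passed, 1.16% downward. All KO values were below those of WT 1, 2 and 5 for 7 of the 8 genes, the exception being Mt-nd5, against 5.48% of all tested genes.

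When KO 4, the KO library highest on the first component, was left out as well, 7 of 8 genes fell, where 3.56% of all tested genes passed and 2.22% fell. This choice too rests on these same data: KO 4 had the highest KO level of Mt-nd1, Mt-nd2, Mt-nd5, Mt-co3 and Mt-atp6. Leaving it out therefore widened these differences, and the added calls are not independent support. Mt-cyb fell by 0.65, Mt-nd2 and Mt-co1 by 0.61, Mt-nd5 by 0.58, Mt-nd1 by 0.55, Mt-co3 by 0.51 and Mt-co2 by 0.45 on the log2-like scale (limma adjusted p from 2.73e-04 for Mt-nd5 to 0.0247 for Mt-co2). Mt-atp6 had a difference of -0.44 and did not pass (SE 0.130, limma adjusted p = 0.0548). KO 1, 2, 3 and 5 were all below WT 1, 2 and 5 for 8 of 8 genes and for 7.79% of all tested genes. Which of the genes passed thus depended on the libraries used, except for Mt-atp6, which passed in none of the 3 sets or the other alternatives. The difference of Mt-atp6 was 0 after quantile normalization, which gives each library the same top values, and -0.32 with median centring. Over the 22 alternative settings the adjusted p ran from 0.00101 to 0.675 for Mt-cyb, from 0.00374 to 0.978 for Mt-co1, from 0.00353 to 0.847 for Mt-nd1 and from 0.00173 to 0.886 for Mt-nd2. It ran from 0.0247 to 0.890 for Mt-co2, from 0.00870 to 0.281 for Mt-co3 and from 0.0548 to 1.00 for Mt-atp6. The plot of differences by gene shows the 3 sets of libraries side by side; they share most of their libraries and are not separate evidence.

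**Figure D2:**
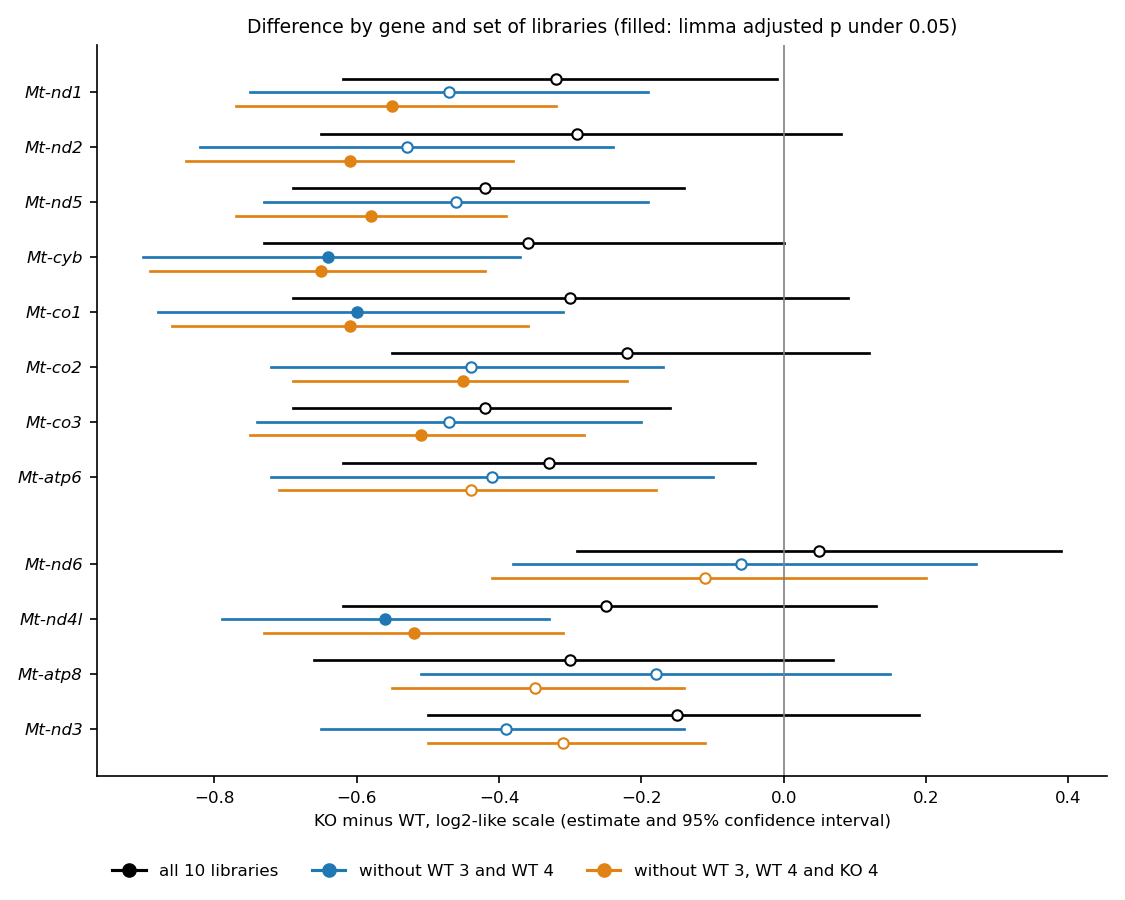
Difference KO minus WT on the log2-like scale (horizontal axis) with its 95% confidence interval, for the 8 genes and, below the gap, 4 other mitochondrially encoded genes, with all 10 libraries (black), without WT 3 and WT 4 (blue) and without WT 3, WT 4 and KO 4 (orange). Filled points passed at a limma adjusted p under 0.05: 0 of the 8 genes with all libraries, 2 in blue and 7 in orange.

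Inside the WT group the 8 genes were not lowered alike in WT 3 and 4. Against the mean of WT 1, 2 and 5, the mean of WT 3 and 4 was 0.601 for Mt-co1, 0.622 for Mt-cyb, 0.656 for Mt-nd2, 0.672 for Mt-co2 and 0.771 for Mt-nd1. It was 0.878 for Mt-atp6, 0.917 for Mt-co3 and 0.924 for Mt-nd5. The same ratio for the KO mean was 0.647 to 0.761 over the 8 genes, a narrower band; both ratios rest on the same 3 WT libraries. Both WT 3 and WT 4 lay below WT 1, 2 and 5 for 7 of the 8 genes, as did 29.0% of all tested genes. These ratios are descriptions of 2 libraries against 3 and were not tested.

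The make-up of the 8 genes' reads shows this without reference to other genes. Mt-atp6 took 23.2% to 24.9% of them in WT 1, 2 and 5, 28.7% and 28.9% in WT 3 and 4, and 24.0% to 27.7% in KO. Mt-co3 took 7.54% to 7.91% in WT 1, 2 and 5, 9.55% to 9.79% in WT 3 and 4, and 7.43% to 8.07% in KO. The neighbouring pair Mt-atp6 and Mt-co3, which lie next to each other on the mitochondrial DNA, therefore had a larger share in WT 3 and 4 than in any other library. Mt-co1 went the other way, with 19.7% to 20.3% in WT 1, 2 and 5, 16.3% to 16.7% in WT 3 and 4, and 17.6% to 20.9% in KO. Mt-nd5 took 1.39% and 1.43% in WT 3 and 4 and 1.43% in KO 4, against 1.01% to 1.20% in the other 7 libraries. Averaged over the groups as labelled, the widest gap in percentage points was that of Mt-co2, which took 16.0 ± 0.911% in WT and 17.2 ± 0.964% in KO (± SD, n = 5 per genotype). Mt-co3 took 8.48 ± 1.10% and 7.83 ± 0.284%, and Mt-co1 took 18.7 ± 1.95% and 18.8 ± 1.39%. These shares were not tested.

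**Figure D3:**
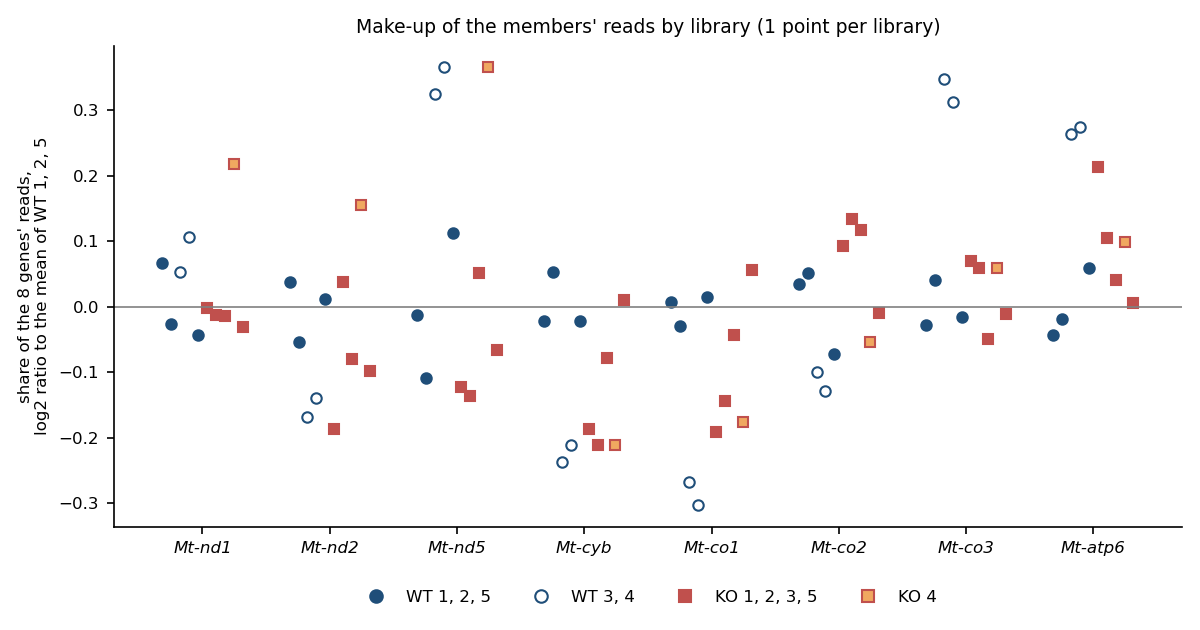
Share of the 8 genes' reads taken by each gene (1 point per library), as a log2 ratio to the mean share in WT 1, 2 and 5, so that 0 is the level of those libraries. WT 3 and WT 4 (open circles) have the lowest shares of Mt-co1, at 16.3% to 16.7%, and the highest of Mt-co3 and Mt-atp6.

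The table held 12 further rows with a mitochondrial symbol, of which 9 were tested and 0 passed with all libraries. Mt-nd6, a complex I gene and the only messenger transcribed in the opposite direction on the mitochondrial DNA, averaged 144 ± 22.3 normalised reads in WT against 155 ± 50.4 in KO (± SD, n = 5 per genotype). Its difference was 0.05 (SE 0.159, 95% interval -0.29 to 0.39, limma adjusted p = 0.918), the highest among the 12 mitochondrially encoded messengers in the table. Its sign was not stable, with -0.06 without WT 3 and 4 and -0.11 without KO 4 as well. Whether counting was stranded is not given, so reads of Mt-nd6 and antisense RNA of the opposite strand cannot be told apart.

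Mt-nd3 and Mt-nd4l, small subunits of complex I, and Mt-atp8, an accessory subunit of complex V, followed the libraries in different ways. Mt-nd4l averaged 383 ± 129.6 normalised reads in WT against 304 ± 33.1 in KO (± SD, n = 5 per genotype; -0.25, SE 0.175, limma adjusted p = 0.552). Without WT 3 and 4 it fell by 0.56 (limma adjusted p = 0.00933; 0.00374 to 0.739 over the alternatives), since these libraries had 245 and 266 reads against 382 to 536 in the other WT libraries. Mt-nd3 had a difference of -0.15 (SE 0.160, limma adjusted p = 0.697) and passed in none of the 3 sets of libraries. Mt-atp8 had a difference of -0.30 (SE 0.170, limma adjusted p = 0.473) and, unlike its neighbour Mt-atp6, was higher in WT 3 and 4 (2103 and 2363 reads) than in WT 1, 2 and 5 (1636 to 2062). KO 4 had the most, 2552, where the other 4 KO libraries had 1160.0 to 1578. The reading frames of Mt-atp8 and Mt-atp6 overlap, and how reads on the shared stretch were assigned is not given.

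The most abundant of these rows, AY172581.9, carries a clone-based symbol, and the table does not say which RNA it is. It had 27211, 24992, 35419, 39576 and 22974 normalised reads in WT 1 to 5, and 18188, 19337, 20436, 35051 and 20078 in KO 1 to 5. WT 3, WT 4 and KO 4, the 3 libraries high on the first component, had the highest levels, as they did for Mt-atp8, while 7 of the 8 respiratory chain genes above were lower in WT 3 and 4 than in WT 1, 2 and 5. Reads of the 8 genes per read of AY172581.9 were 2.84 and 2.47 in WT 3 and 4 and 3.03 in KO 4, against 3.65 to 6.08 in the other 7 libraries. The difference of AY172581.9 between genotypes was -0.42 (SE 0.198, limma adjusted p = 0.373), and -0.19 without WT 3 and 4 (limma adjusted p = 0.693). AY172581.12 had 154 ± 32.1 normalised reads in WT against 112 ± 27.0 in KO (-0.36, SE 0.143, limma adjusted p = 0.274), and fell by 0.52 without WT 3 and 4 (limma adjusted p = 0.0385; 0.00942 to 0.513 over the alternatives).

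The summed level of the nuclear-encoded partners differed between genotypes by less than the spread between libraries. Of 67 tested subunits of complexes I, III, IV and V, 33 were lower and 34 higher in KO, with a median difference of 0.00, and 0 passed. Without WT 3 and 4, 42 were lower and 25 higher, with a median of -0.05, beside 49.4% lower over all tested genes. Summed over the 68 with a row, they had 53062 ± 3334 normalised reads in WT against 53327 ± 2705 in KO (± SD, n = 5 per genotype). Complex III was the exception among the 4 complexes: its 8 nuclear-encoded subunits summed to 7019.5 to 7389.6 in WT and 6315 to 6704 in KO, without overlap. These sums were not tested. Per 100 reads of the 68 nuclear-encoded subunits the 8 mitochondrial genes had 244, 244, 202, 198 and 247 in WT 1 to 5, and 179.7, 188, 132, 215 and 201 in KO 1 to 5. This ratio was nearly constant in WT 1, 2 and 5 and lower in every other library, with WT 3 and 4 inside the KO range. Nuclear-encoded subunits were themselves lower in WT 3, WT 4 and KO 4, at 49670.0, 49331 and 49491 reads, against 51874 to 56517 in the other 7 libraries.

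By complex the ratio of mitochondrial to nuclear-encoded reads parted the genotypes completely only for complex V. There it was 145 to 160.4 per 100 in WT, with WT 3 and 4 at 160.4 and 156, and 82.8 to 141 in KO. Its mitochondrial reads are those of Mt-atp6 alone, which separated the genotypes by itself, so this is not a separate result. The nuclear-encoded sum of complex V was 18000.1 and 18092 in WT 3 and 4 and 21215 to 22073 in WT 1, 2 and 5. In KO that sum was 19265 to 22159.8. For complex I the ratio was 199.9 to 252 in WT and 132 to 238 in KO, with KO 4 as the high KO library. For complex III it was 247 to 264 in WT 1, 2 and 5, 152 and 153 in WT 3 and 4, and 139.8 to 219 in KO. For complex IV it was 364 to 370.3 in WT 1, 2 and 5, 278 and 269 in WT 3 and 4, and 192 to 313 in KO. The ratios are sums over chosen genes and were not tested.

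**Figure D4:**
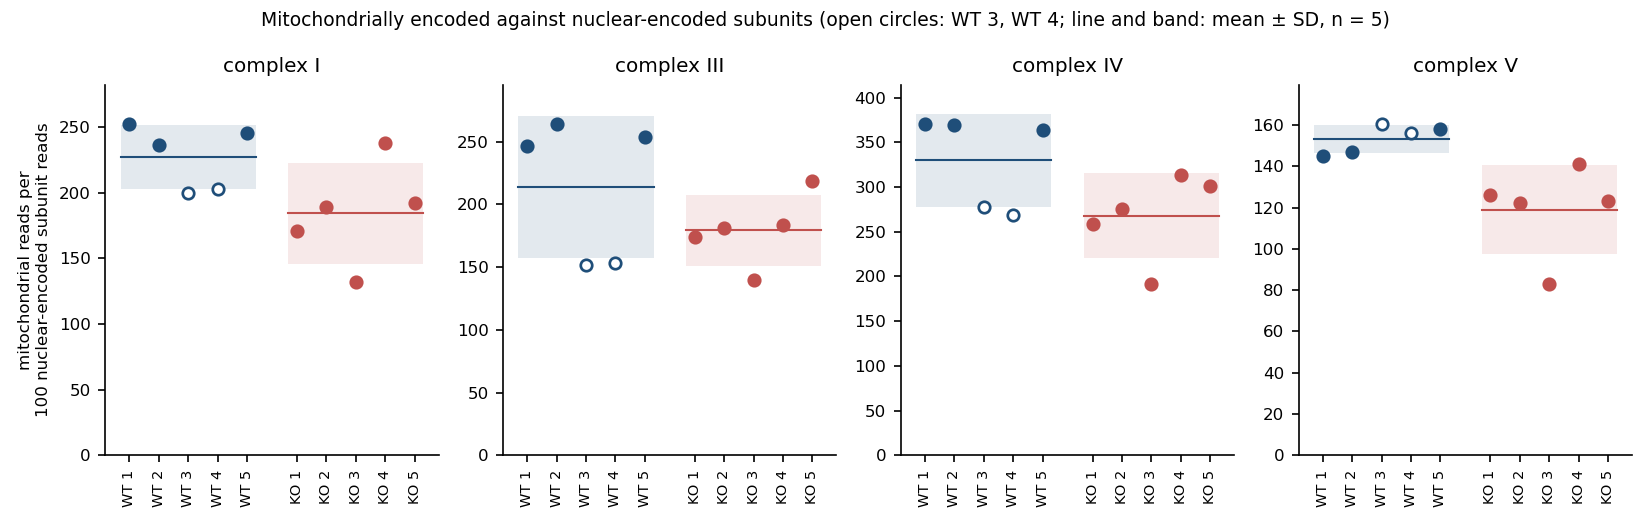
Reads of the mitochondrially encoded members per 100 reads of the nuclear-encoded subunits of the same complex (vertical axis from 0), with 1 point per library, a line at the group mean and a band of 1 SD (n = 5 per group). For complex V, where the mitochondrial reads are those of Mt-atp6 alone, all WT libraries, at 145 to 160.4, lie above all KO libraries, at 82.8 to 141. WT 3 and WT 4 (open circles) are low for complexes I, III and IV.

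Among the nuclear-encoded subunits, complex I had 31 tested genes (13 lower and 18 higher in KO, median 0.02), complex III 8 (6 and 2, median -0.10), complex IV 12 (7 and 5, median -0.02) and complex V 16 (7 and 9, median 0.06). Without WT 3 and 4 the balance turned for complex I (19 lower and 12 higher, median -0.04) and complex V (10 and 6, median -0.07). The members with the smallest p were Ndufa3 in complex I (-0.28, limma adjusted p = 0.317) and Uqcrb in complex III (-0.27, limma adjusted p = 0.190). They were Cox6b1 in complex IV (-0.32, limma adjusted p = 0.253) and Atp5mf in complex V (-0.24, limma adjusted p = 0.418). Uqcrb separated the genotypes, with 2533 ± 175 normalised reads in WT against 2098 ± 120.1 in KO (± SD, n = 5 per genotype). All KO values lay below all WT values for 2.40% of all tested genes. In complex II, which has no mitochondrially encoded subunit, 3 of 4 genes were lower in KO and the smallest p was that of Sdhb (-0.11, limma adjusted p = 0.575).

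Without WT 3 and 4, 2 of the 67 nuclear-encoded subunits passed, beside 1.87% of all tested genes, and without KO 4 as well, 3 passed, beside 3.56%. These few are near the shares over all genes and are named here after their values were seen. Cox4i2, an isoform of a complex IV subunit known to be induced by low oxygen, had 24.4, 22.3, 85.3, 86.0 and 35.9 normalised reads in WT 1 to 5 and 79.4, 79.3, 68.3, 93.7 and 49.3 in KO 1 to 5. WT 3 and 4 were thus at the KO level, above the other WT libraries. With all libraries it differed by 0.43 (SE 0.217, limma adjusted p = 0.402), and it rose by 0.83 without WT 3 and 4 (limma adjusted p = 0.00183; 0.00114 to 0.564 over the alternatives). Ndufa2, an accessory subunit of complex I, had 754, 739, 505, 560.2 and 761 normalised reads in WT 1 to 5 and 521 to 612 in KO. It differed by -0.22 with all libraries (limma adjusted p = 0.440) and fell by 0.41 without WT 3 and 4 (limma adjusted p = 0.0189; 0.00762 to 0.605 over the alternatives). Uqcrfs1, the iron-sulfur protein of complex III, fell by 0.31 without all 3 libraries (limma adjusted p = 0.0460; 0.0460 to 0.951 over the alternatives).

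Among genes that make and keep mitochondrial RNA 0 passed. Without WT 3 and 4 the balance of higher and lower genes turned only for transcription and the nucleoid. Of 18 tested genes of mitochondrial transcription and the nucleoid, the DNA-protein body that holds the mitochondrial genome, 6 were lower and 12 higher, with a median of 0.04, and without WT 3 and 4, 10 were lower and 8 higher, with a median of -0.02. Atad3a, a membrane ATPase tied to the nucleoid, had the smallest p (0.31, SE 0.128, limma adjusted p = 0.303) and differed by 0.15 without WT 3 and 4 (limma adjusted p = 0.624). Of 23 genes of mitochondrial RNA processing, stability and decay, 6 were lower and 17 higher, with a median of 0.12, and without WT 3 and 4, 10 and 13, with a median of 0.05. Grsf1, an RNA-binding protein of mitochondrial RNA granules, averaged 296 ± 28.6 normalised reads in WT against 373 ± 41.5 in KO (± SD, n = 5 per genotype; 0.30, SE 0.0965, limma adjusted p = 0.184). It differed by 0.25 without WT 3 and 4 (limma adjusted p = 0.263). Of 9 nuclear regulators of mitochondrial biogenesis, 2 were lower and 7 higher, with a median of 0.04, and Sirt3 had the smallest p (0.13, limma adjusted p = 0.611). Without WT 3 and 4, 3 of these regulators were lower and 6 higher, with a median of 0.03.

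In the lists of assembly, protein care and organelle shape, 0 genes passed as well. Of 19 assembly factors of complexes I and IV, 6 were lower and 13 higher (median 0.08), which turned to 11 and 8 without WT 3 and 4 (median -0.03). Acad9, needed to build complex I, had the smallest p (0.33, SE 0.126, limma adjusted p = 0.251) and differed by 0.15 without WT 3 and 4 (limma adjusted p = 0.589). Of 16 genes of the mitochondrial stress response and proteases, 3 were lower and 13 higher (median 0.12), which turned to 9 and 7 without WT 3 and 4 (median -0.01). Hspd1, the matrix chaperonin, had 1582 ± 557 normalised reads in WT against 2061 ± 308 in KO (limma adjusted p = 0.388), and its WT mean was 1986 in WT 1, 2 and 5 but 975 in WT 3 and 4. Of 16 genes of mitophagy and mitochondrial shape, 13 were lower and 3 higher (median -0.06), and 9 and 7 without WT 3 and 4 (median -0.08). Vdac3, a channel of the outer membrane, had the smallest p of this list, with 833 ± 76.6 normalised reads in WT against 1074 ± 62.9 in KO (0.35, SE 0.0895, limma adjusted p = 0.0832). Over these 3 lists, the other mitochondrial lists and the nuclear-encoded subunits, 172 genes were tested; at an unadjusted p under 0.05 limma gave 9 of them and limma-voom 10, smaller shares than the 13.5% and 13.4% over all tested genes.

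The marker lists gave 2 calls, in 1 of 13 tested chondrocyte markers and 1 of 3 tested fibroblast markers, beside 1.14% of all tested genes. Of the endothelial markers 2 were tested and of the epithelial ones 1, and 0 passed. Col11a1, a chain of cartilage collagen XI, was 15137 in WT 3 and 4 on average, 7303 in WT 1, 2 and 5 and 4392 ± 858 in KO (-1.16, SE 0.229, limma adjusted p = 0.0207). S100a4, a calcium-binding protein listed as a fibroblast marker, had 22.8 ± 5.93 normalised reads in WT against 7.14 ± 2.35 in KO (-0.60, SE 0.112, limma adjusted p = 0.0179). Leaving out KO 1, 2, 3 or 5 ended the call of Col11a1 (limma adjusted p at most 0.0834), and leaving out KO 1 or 3 ended the call of S100a4 (at most 0.0609). Vwf and Krt8, the endothelial and epithelial markers with the smallest p, differed by -0.30 and -0.04 (limma adjusted p = 0.470 and 0.869). The part of these marker levels in the mitochondrial differences was not tested.

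On the log2-like scale the mean profile of the 8 genes over the 10 libraries, centred on 0, was 0.31, 0.32, -0.07, -0.10 and 0.38 in WT 1 to 5 and -0.18, -0.09, -0.53, 0.04 and -0.06 in KO 1 to 5. The root mean square distance of each gene from the mean profile of the other 7 was 0.0638 for Mt-nd1 to 0.187 for Mt-nd5. Of 7877 other tested genes with a symbol the nearest to the profile of the 8 were Kdm1b, a histone demethylase, at 0.105, Acot13, a thioesterase of mitochondria, at 0.116, and Bod1l1 at 0.129. C1h15orf40-ps2 and Wdr1, an actin-disassembly factor, followed at 0.134 each. On this scale these 5 genes lay within the range of the 8 genes themselves. Kdm1b and Acot13 averaged only 34.5 and 40.8 normalised reads in WT, and the scale shrinks differences between genes with few reads. The KO mean of Kdm1b was 0.671 of its WT mean for a difference of -0.30, against 0.806 and -0.32 for Mt-nd1. A small distance therefore does not show a like ratio between genotypes for genes with few reads. Wdr1 averaged 531 ± 43.6 normalised reads in WT against 405 ± 36.2 in KO (± SD, n = 5 per genotype; limma adjusted p = 0.0832), and none of these 5 genes passed with all libraries. Bod1l1 and Wdr1 fell by 0.51 and 0.42 without WT 3 and 4 (limma adjusted p = 0.0320 and 0.0215).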

How the data were processed

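The table the authors deposited holds log2-like, variance-stabilised values of 10184 genes in 10 libraries. Its gene filter, strand setting and treatment of reads with several matches (nuclear copies of mitochondrial genes included) are not given in the sources read for it. The submitters' processing notes name bcl2fastq, STAR 2.7.11a, HTSeq and rn6. Inverting the transformation gave whole reads in every library (largest departure 1.6e-09 reads), and their size factors equalled median-of-ratios factors. Genes whose mean exceeded the table's lowest value, 4.42, by 1 or more (10.7 normalised reads) were tested with limma 3.58.1 in R 4.3.3 with an intensity trend. The fit was also run on simulated reads of independent libraries. These held no split like that of WT 3 and 4, so the run cannot show how the test behaves with such a split. The members, lists, tests and library sets were chosen with earlier results of these data known. The 16 lists held 261 entries, of which 191 were tested. Named are all members, the other mitochondrial rows above 100 mean reads, up to 2 called rises and 2 called falls per list or else the smallest p, and the 5 nearest profiles. Alternatives covered normalization, filters, variance model, library weights, limma-voom, a replicate block and left-out libraries. The replicate numbers were not taken to pair libraries, since not every same-numbered pair deviated together (r from -0.29 to 0.59).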

Additional observations from a re-analysis of the deposited data

Results flagged for a closer look

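In 60 groups of 5 libraries checked for a library far from the rest, 8 were flagged, where chance flags about 1 in 20. Many groups are linked, since the 8 genes share their transcription and the read share sums over them. The flags are thus not separate events, and their count cannot show an excess over that rate. ARSL KO 3 was the low library for Mt-co2 (13.71 on the log2-like scale, next 14.05), Mt-co3 (12.45, next 12.95), Mt-atp6 (14.17, next 14.61) and for the share of listed reads in the 8 genes (3.40%, next 4.38%). It was also the low KO library for the nuclear-encoded Ndufa3 (7.12, next 7.57). ARSL KO 4 was the high KO library for AY172581.9 (15.10, next 14.32). WT 5 was the high WT library for Mt-nd5 (10.74, next 10.56), and ARSL KO 5 the high KO library for Sirt3 (6.41, next 6.27).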

How the results depend on the processing

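Of 176 member values under 22 alternative settings, 173 stayed below 0; under quantile normalization the difference of Mt-atp6 was 0 (within 1e-09), and Mt-co1 (0.01), Mt-co2 (0.04) and, outside the members, AY172581.9 (0.02) turned sign, a setting which gives each library the same set of values and so the same top values. Mt-nd6 turned to -0.09 with array weights, -0.06 without WT 3 and WT 4, -0.11 without ARSL KO 4 as well, and -0.07 to 0.15 with 1 library left out. Krt8 ran from -0.07 to 0.00362 with 1 library left out. The 96 calls over all tested genes became 42 with the stricter filter, which tests fewer genes, 219 with array weights, 158 without WT 3 and WT 4, 300 without ARSL KO 4 as well, and 33 to 101 with 1 library left out; the lowest counts were 62 without WT 3, 53, 37, 33 and 37 without ARSL KO 1, 2, 3 and 5. The 0 members called became 3 with array weights (Mt-nd5, Mt-cyb and Mt-co3), 2 and 7 in the 2 reduced sets, and 0 to 1 with 1 library left out. The cause of these changes was not tested. The array weights were lowest for WT 3 (0.32), WT 4 (0.35) and ARSL KO 4 (0.71), so that setting is not separate from leaving them out. With the replicate block 136 genes and 0 members were called; WT 4 and ARSL KO 4 were each other's best match by number, but not every library matched its own number. The difference in the share of reads stayed between -1.74 and -0.724 percentage points in all sets of libraries.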
